A study of Canis lupus familiaris with 18 samples.

Results

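The *H3K27ac* peaks of the autosomes were examined by their width in the pons, a part of the brainstem, of 6 dogs. All 665297 deposited *H3K27ac* peaks on chromosomes 1 to 38 were taken, out of 682006 *H3K27ac* peaks and 1381743 peaks of either antibody in the series. They were divided into 4 classes, below 1 kb, 1 to 5 kb, 5 to 20 kb, and 20 kb or more, where the width of a peak is the distance between its start and its end. The other 16709 *H3K27ac* peaks lay on the X chromosome and were left out.

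The study asked how a transposable element (TE) insertion in the gene *GTF2I*, whose absence is the derived state in dogs, relates to chromatin in the brain, and global *H3K27ac* was one of its readouts. Chromatin immunoprecipitation sequencing (*ChIP-seq*) was performed on flash-frozen brainstem of 3 dogs that carried the insertion (labelled ins, here ancestral) and 3 dogs without it (labelled noins, here derived), with 1 *H3K27ac* and 1 *E2F1* peak list per dog. The ancestral dogs were heterozygous for the insertion and the derived dogs were homozygous for its absence, so no dog had 2 copies of the insertion. All 6 were male dogs of 12 to 16 years, nearly all of mixed breed, and each dog is 1 biological replicate. Genotype therefore cannot be told apart from other differences between these individuals.

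*H3K27ac* is the acetylation of lysine 27 on histone H3, a mark of active promoters and enhancers. Acetylated chromatin is open and is read by proteins that recruit the transcription machinery. Narrow peaks usually mark single elements, while long stretches of the mark often lie over clusters of enhancers and over genes that define a cell type. *E2F1*, the other antibody target, is a transcription factor that mostly binds promoters. The authors caution that the *E2F1* data had low quality scores, so that some binding sites may be missing. They also describe its tracks as noisier than usual.

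The lists held 138141, 98700 and 100292 autosomal peaks in ancestral dogs 1, 2 and 3, and 118156, 96561 and 113447 in derived dogs 1, 2 and 3. Ancestral dog 1 had the most and derived dog 2 the fewest, and the groups overlapped. The lists hold no read counts, so the depth behind them is not known from them, and neither a counting interval nor a detection limit can be given. The narrowest peak of a list was 262 to 280 bp wide, and the smallest gap between neighbouring peaks was 1049 to 1121 bp. In every list that gap was about 4 times the narrowest width, so stretches of the mark with a shorter break between them are not listed as separate peaks. The smallest gap was 1103 bp in derived dog 2 and 1121 bp in derived dog 3, and 1049 to 1068 bp in the other 4 dogs.

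Most peaks were below 5 kb wide, and peaks of 20 kb or more were rare but held a larger share of the covered length than of the peaks. Over all dogs, 41.1% of the peaks were below 1 kb, and they held 9.90% of the covered length. Peaks of 1 to 5 kb made up 48.8% of the peaks and 46.8% of the length, and those of 5 to 20 kb made up 9.45% and 34.8%. The 4294 peaks of 20 kb or more were 0.645% of the peaks and held 8.53% of the length. All classes together covered between 9.81% (ancestral dog 2) and 13.5% (ancestral dog 1) of the autosomes, whose length was taken up to the last peak on each chromosome.

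Wider peaks were also the more strongly enriched ones within every list. The median fold enrichment over local background ranged over the 6 dogs from 2.68 to 2.80 below 1 kb, from 2.98 to 3.37 at 1 to 5 kb, from 4.49 to 5.57 at 5 to 20 kb, and from 7.07 to 8.70 at 20 kb or more, so that the ranges of the classes did not meet. The share of peaks with a q value below 1e-05 rose from 11.8 to 22.9% in the narrowest class to 98.6 to 99.9% in the widest. Fold and q are averages over a broad peak and were compared only within a list. The exceptions were q limits set alike for all dogs, and the ranking by q that gave equal peak numbers.

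Peaks also lay closer to a neighbour the wider they were. The median distance to the nearest peak was 2668 to 3214 bp for peaks below 1 kb and 1284 to 1430 bp for peaks of 20 kb or more. A neighbour within 3 kb was found for 47.9 to 54.1% of the former and for 93.7 to 97.7% of the latter. Few of the widest peaks thus stood alone.

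No width class differed between the genotypes in the number of its peaks beyond the spread between dogs. Peaks below 1 kb numbered 59753, 41538 and 40805 in ancestral dogs 1, 2 and 3, and 50570, 36031 and 44844 in derived dogs 1, 2 and 3. Ancestral dog 1 was the highest, derived dog 2 the lowest, and the groups overlapped. The means were 47365 ± 10734 and 43815 ± 7324 (SD, n = 3 and 3), and the exact permutation test gave p = 0.7 (two-sided, adjusted p = 0.9).

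Peaks of 1 to 5 kb numbered 65623, 48076 and 49186 in the ancestral dogs, against 56542, 48576 and 56620 in the derived dogs. Ancestral dog 1 was again highest, and the other values interleaved. The means of 54295 ± 9826 and 53913 ± 4622 (SD, n = 3 and 3) differed by less than either spread (exact permutation p = 0.9, adjusted p = 0.9).

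For the wider classes the derived mean was the higher one, but the groups overlapped. Peaks of 5 to 20 kb numbered 11984, 8549 and 9646 in the ancestral dogs, against 10395, 11038 and 11227 in the derived dogs. The derived dogs lay close together, and ancestral dog 1 was above all of them. The means were 10060 ± 1754 and 10887 ± 436 (SD, n = 3 and 3; exact permutation p = 0.6, adjusted p = 0.9). The difference of 827 peaks was 71.7 without ancestral dog 2 and 1789 without ancestral dog 1.

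Peaks of 20 kb or more numbered 781, 537 and 655 in the ancestral dogs, against 649, 916 and 756 in the derived dogs. Derived dog 2 was the highest and ancestral dog 2 the lowest, while derived dog 1 lay below 2 of the ancestral dogs. The means were 657.7 ± 122 and 773.7 ± 134.4 (SD, n = 3 and 3), a difference of 116 peaks (exact permutation p = 0.5, adjusted p = 0.9). Without derived dog 2 the difference was 44.8 peaks. Just below the limit of this class, at 19 to 20 kb, the dogs had 85 to 118 peaks, with means of 99.3 in the ancestral and 99.7 in the derived dogs. Just above it, at 20 to 21 kb, the ancestral dogs had 74, 49 and 72 peaks, against 77, 103 and 82 in the derived dogs. The groups did not overlap there, and these counts were not tested.

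**Figure D1:**
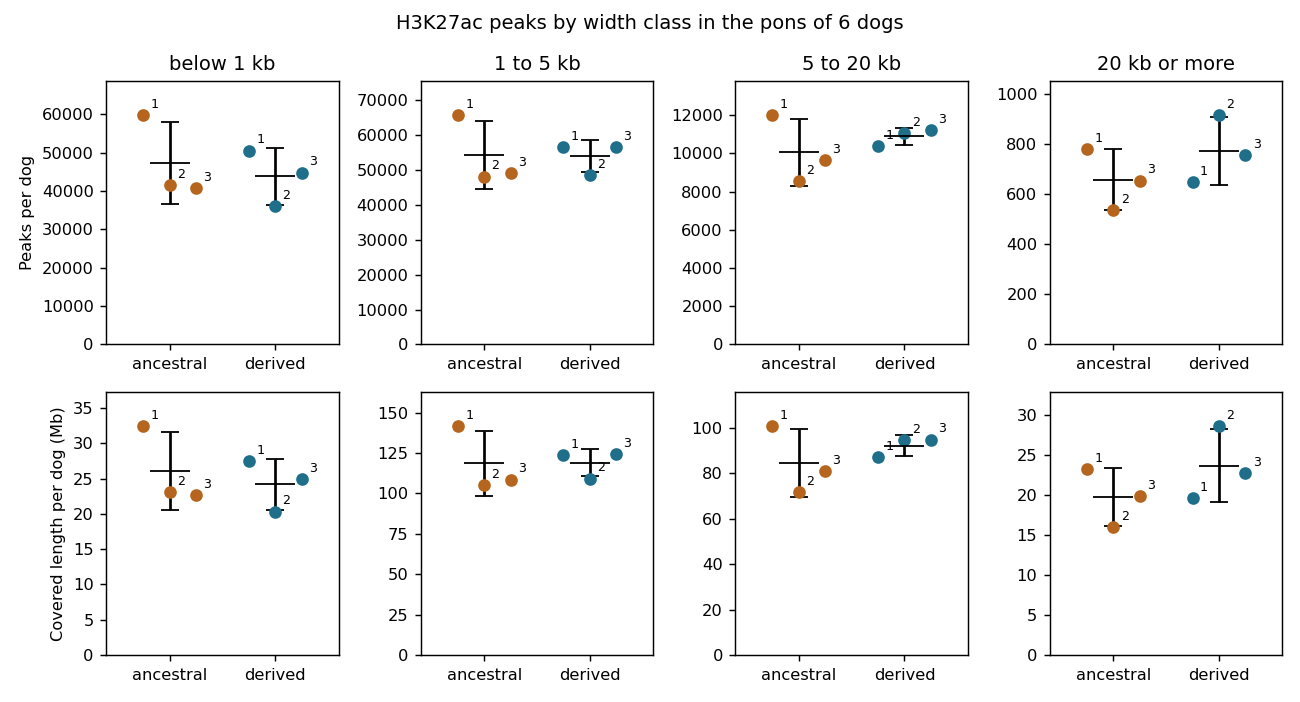
Number of *H3K27ac* peaks (top, count per dog) and covered length (bottom, Mb per dog) in the 4 width classes, with linear axes from 0. Points are dogs, with their replicate number, and the bars are the mean and SD of 3 dogs; the genotypes overlap in all 8 panels, ancestral dog 1 is highest in the first 3 classes, and derived dog 2 is highest at 20 kb or more.

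In covered length, too, no class differed between the genotypes beyond the spread between dogs. Peaks of 20 kb or more covered 23.2, 16.0 and 19.8 Mb in the ancestral dogs, against 19.6, 28.6 and 22.7 Mb in the derived dogs. Derived dog 2 stood highest and ancestral dog 2 lowest, and the groups overlapped. The difference of 3.96 Mb (exact permutation p = 0.5, adjusted p = 0.9) was 1.47 Mb without derived dog 2.

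Peaks of 5 to 20 kb covered 100.9, 71.8 and 81.1 Mb in the ancestral dogs, against 87.1, 94.8 and 94.9 Mb in the derived dogs. The 3 derived dogs lay between ancestral dogs 1 and 3. The means of 84.6 ± 14.9 and 92.2 ± 4.49 Mb (SD, n = 3 and 3) did not differ beyond the spread (exact permutation p = 0.6, adjusted p = 0.9), and their difference of 7.66 Mb was 1.25 Mb without ancestral dog 2 and 15.8 Mb without ancestral dog 1. Peaks of 1 to 5 kb covered 105.3 to 141.8 Mb and those below 1 kb 20.3 to 32.5 Mb, with derived minus ancestral differences of 0.560 and −1.87 Mb (exact permutation p = 0.9 and 0.7, adjusted p = 0.9 for both, n = 3 and 3).

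The total covered length was 298.4, 216.2 and 232.1 Mb in the ancestral dogs, against 257.7, 252.9 and 267.0 Mb in the derived dogs. The ancestral dogs enclosed the derived dogs on both sides. Leaving out 1 ancestral dog decided the sign of the difference, which was 10.3 Mb with all dogs (exact permutation p = 0.8, adjusted p = 0.9, n = 3 and 3), 35.1 Mb without ancestral dog 1 and −6.05 Mb without ancestral dog 2. With 3 dogs against 3, the smallest p that the exact test allows is 0.1, so none of these comparisons could have passed 0.05, and the p-values do not show that the genotypes were alike.

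Measured as a share of each dog's own covered length, no class differed between the genotypes beyond the spread. Derived dog 2 was the lowest or the highest dog in every class. The share in peaks of 20 kb or more was 7.79, 7.41 and 8.54% in the ancestral dogs, against 7.62, 11.3 and 8.50% in the derived dogs. Only derived dog 2 lay outside the ancestral range. The means were 7.91 ± 0.577 and 9.15 ± 1.93% (SD, n = 3 and 3; exact permutation p = 0.5, adjusted p = 0.5). The difference of 1.23 percentage points was 0.146 without derived dog 2 and 1.996 without derived dog 1.

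In the class of 5 to 20 kb the share was 33.8, 33.2 and 34.9% in the ancestral and 33.8, 37.5 and 35.5% in the derived dogs. Derived dogs 2 and 3 were above all ancestral dogs, and derived dog 1 was among them. Below 1 kb the order turned over, with 10.9, 10.7 and 9.78% in the ancestral and 10.6, 8.03 and 9.34% in the derived dogs. The differences were 1.62 percentage points (exact permutation p = 0.3, n = 3 and 3) and −1.11 percentage points (exact permutation p = 0.2), both with an adjusted p of 0.5. At 1 to 5 kb the share was 43.2% in derived dog 2 and 46.6 to 48.7% in the other dogs, a difference of −1.74 percentage points (exact permutation p = 0.4, adjusted p = 0.5, n = 3 and 3). Without derived dog 2 the differences were −0.460, −0.367 and 0.681 percentage points from the narrowest class up to 5 to 20 kb. Without derived dog 1 they were −1.77, −2.76 and 2.53 percentage points in the same order.

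The width distribution as a whole showed the same dog apart. The median width was 1173, 1220 and 1258 bp in the ancestral dogs and 1195, 1386 and 1289 bp in the derived dogs. Derived dogs 2 and 3 had the widest medians, and derived dog 1 was the second narrowest of the 6. The difference of 73 bp gave an exact permutation p of 0.3 (adjusted p = 0.4, n = 3 and 3). It was 25 bp without derived dog 2 and 120.5 bp without derived dog 1.

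At the 99th percentile the widths were 15767, 15630 and 16484 bp in the ancestral dogs and 15575, 19514 and 16957 bp in the derived dogs. Derived dog 2 was highest and derived dog 1 lowest of all. The difference was 1388 bp (exact permutation p = 0.4, adjusted p = 0.4, n = 3 and 3). It was 305.2 bp without derived dog 2 and 2275 bp without derived dog 1. At the 90th percentile the difference was 383.1 bp (exact permutation p = 0.2, adjusted p = 0.4). It was 125.7 bp without derived dog 2 and 610.2 bp without derived dog 1. When peaks of every dog were joined across gaps of at most 1.2 kb, a setting chosen after seeing the data that is above the smallest gap of every list, the difference at the 99th percentile was 824.5 bp.

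**Figure D2:**
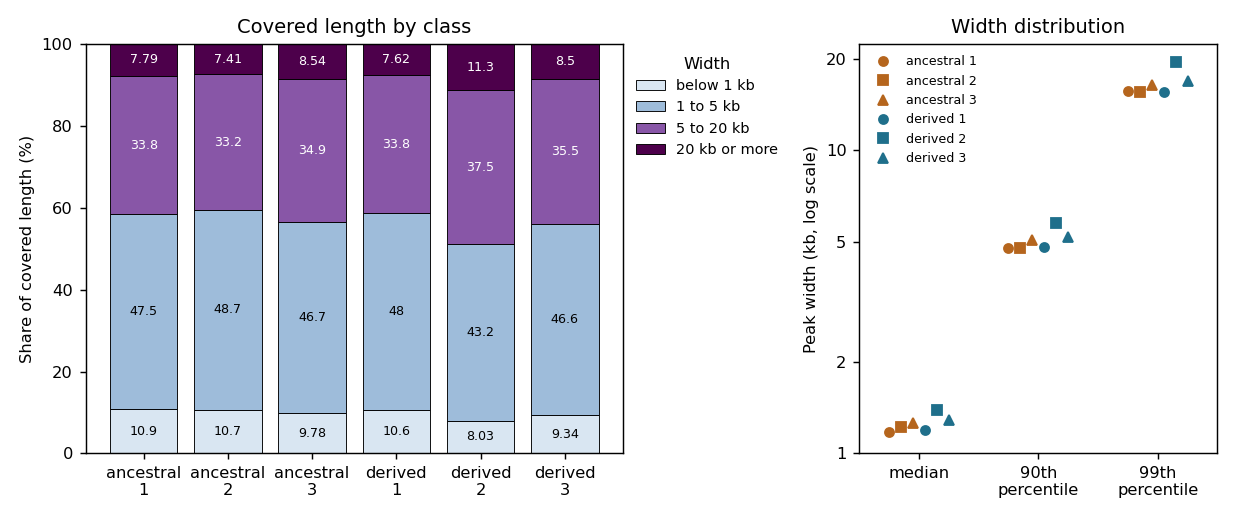
Left, share of each dog's covered length (%) that lay in each width class; right, median, 90th and 99th percentile of peak width (kb, log scale), 1 point per dog. Derived dog 2 has the largest shares at 5 to 20 kb and at 20 kb or more (37.5 and 11.3%) and the widest peaks at all 3 points of the distribution, while derived dog 1 lies among the ancestral dogs or just below them.

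The widest peak of each dog came from a few places. It was 140583 bp in ancestral dog 1, on chromosome 5 (chr5:15844109-15984691, CanFam3.1, the build of all coordinates here). On chromosome 26 it was 93252 bp in ancestral dog 2 (chr26:18597090-18690341) and 115664 bp in derived dog 1 (chr26:18574695-18690358). On chromosome 28 it was 118838 bp in ancestral dog 3 (chr28:29485657-29604494), 117631 bp in derived dog 2 (chr28:29485558-29603188) and 110204 bp in derived dog 3 (chr28:29485826-29596029). So 3 chromosomal stretches held the widest peak of all 6 dogs, and each of the stretches on chromosomes 26 and 28 did so in dogs of both genotypes. No annotation of this build was used, so genes under these peaks are not named.

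In these stretches the width of the widest peak differed between dogs of the same genotype. In the stretch on chromosome 28 the widest peak was 110399, 66051 and 118838 bp in the ancestral dogs and 79710, 117631 and 110204 bp in the derived dogs. Ancestral dog 2, with the narrowest value, had 4 peaks across the span of the single peak of ancestral dog 3. In the stretch on chromosome 5 it was 140583, 67978 and 100601 bp against 97025, 99783 and 97649 bp, with ancestral dog 2 lowest again. In the stretch on chromosome 26 it was 95331, 93252 and 95185 bp against 115664, 94138 and 57076 bp, with derived dog 3 lowest.

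Wide peaks were found at the same places in the other dogs far more than narrow ones. Over the 30 ordered pairs of dogs, a mean of 54.4% of the peaks below 1 kb were overlapped by at least 1 bp by a peak of the other dog (34.0 to 70.7% over pairs), against 82.7% at 1 to 5 kb, 99.6% at 5 to 20 kb and 100% at 20 kb or more. A wide peak has more bases that can be touched, so the covered bases were compared as well. Of the bases of peaks below 1 kb, 47.6% were covered in another dog, against 66.7% at 1 to 5 kb, 84.3% at 5 to 20 kb and 93.7% at 20 kb or more. This order is a description, because pairs share dogs.

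Dogs of the same genotype were not nearer to each other than dogs of different genotype in this measure. The bases of peaks of 20 kb or more were covered to 93.5% on average in the 12 ordered pairs of the same genotype and to 93.9% in the 18 pairs of different genotype. Below 1 kb the values were 47.4 and 47.7%.

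What varied between dogs for a wide peak was its width class. Of the bases in peaks of 20 kb or more of 1 dog, 65.7% lay in a peak of 20 kb or more in another dog (41.3 to 83.0% over pairs), 24.03% in a peak of 5 to 20 kb, 3.71% in one of 1 to 5 kb, and 6.29% in no peak. Of the bases in peaks below 1 kb, 23.3% lay in the same class, 20.5% in a peak of 1 to 5 kb and 52.4% in no peak. Most bases of the widest peaks thus stayed in their class, while most bases of the narrowest peaks did not.

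**Figure D3:**
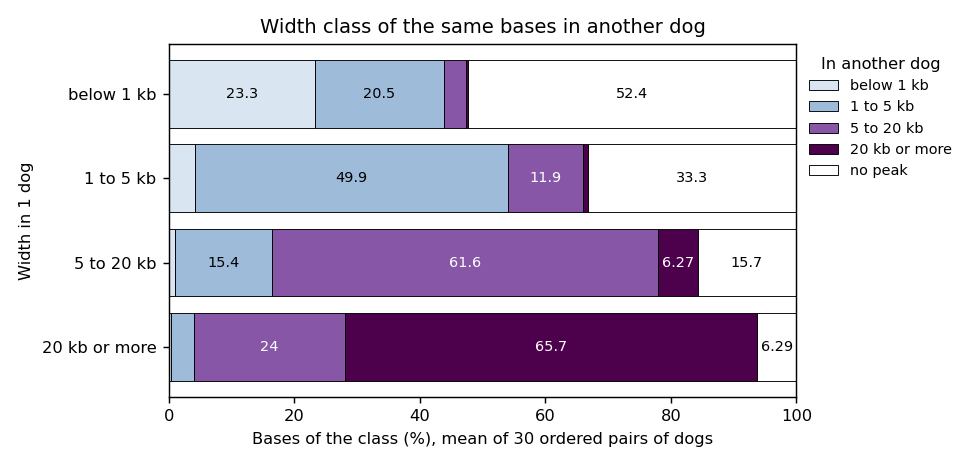
Bases of the peaks of each width class in 1 dog (rows), divided by the width class of the peak that covered them in another dog (colours, % of bases, mean over 30 ordered pairs of dogs). The white part, with no peak in the other dog, falls from 52.4% below 1 kb to 6.29% at 20 kb or more.

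Merging overlapping or touching peaks across the dogs gave 175766 regions, of which 47984 (27.3%) had a peak in every dog. Regions were classed by the mean of the covered bases over the dogs that had a peak there. Of the 92825 regions below 1 kb, 6.04% had a peak in all 6 dogs and 54.5% in 1 dog. At 1 to 5 kb it was 43.4% of 71620 in all dogs, and at 5 to 20 kb 99.5% of 10132. All 1189 regions with a mean of 20 kb or more had a peak in every dog.

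A peak of 20 kb or more was present in at least 1 dog in 1351 regions. It was present in 1 dog in 497 of them (36.8%), in 2 dogs in 197, in 3 dogs in 131, in 4 dogs in 113, in 5 dogs in 137 and in all 6 dogs in 276 (20.4%). Derived dog 2 was the single dog in 193 of the 497, and ancestral dog 1 in 93, while the other dogs were so in 22 to 83. Both are the dogs with the most peaks of this class.

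The 1075 regions in which some dogs lacked a peak of 20 kb or more all had a peak in every dog. Over the 4029 combinations of a region and a dog without such a peak, the widest peak was of 5 to 20 kb in 3916 (97.2%) and of 1 to 5 kb in 113 (2.81%). In 3919 of these combinations (97.3%) the dog had at least 2 peaks in the region. Regions were merged over all dogs and can reach beyond the wide peak, so a second peak does not show a break. The same share was not counted for dogs with a peak of 20 kb or more. That the peaks were shorter there follows from the limit, and in 0 of these combinations was the region without a peak.

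In 5 regions the narrowest value over the dogs of the widest peak was largest, and they were picked for this, so their likeness between dogs is not a finding. The region at chr28:31294896-31388522 had a widest peak of 82554, 76383 and 82576 bp in the ancestral dogs and 82503, 93627 and 76531 bp in the derived dogs. The groups overlapped, with derived dog 2 highest and ancestral dog 2 lowest. In the region at chr1:114358995-114447618 the values were 75819, 78548 and 74652 bp against 74651, 75584 and 80078 bp, again interleaved.

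The region at chr25:30893673-30970232 was the only one of these 5 that was 1 unbroken peak in every dog. It measured 75172, 74168 and 76560 bp in the ancestral dogs and 75357, 75345 and 74216 bp in the derived dogs. The 6 values lay close together and the groups overlapped. At chr5:15844104-15992547, which holds the widest peak of ancestral dog 1, the spread was largest, as given above. At chr12:8678858-8750924 the widest peak was 66856, 71603 and 71771 bp in the ancestral and 71772, 66971 and 71940 bp in the derived dogs.

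*E2F1* peaks lay inside these stretches to a degree that differed by dog. The region on chromosome 1 held 9, 13 and 25 *E2F1* peaks with a q value below 0.0005 in the ancestral dogs, against 0, 33 and 12 in the derived dogs. Derived dog 2 was highest and derived dog 1 had none. The dogs ranked there in the order of their *E2F1* peaks over all autosomes, which ran from 18947 in derived dog 1 to 63306 in derived dog 2. The region on chromosome 25 held 5, 5 and 12 against 0, 7 and 1. In the other 3 regions, derived dog 1 also had *E2F1* peaks. They numbered 6, 6 and 8 against 3, 7 and 4 on chromosome 28, 4, 7 and 11 against 3, 7 and 2 on chromosome 5, and 1, 3 and 4 against 1, 4 and 2 on chromosome 12.

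A peak of 20 kb or more was present in all 3 derived dogs and no ancestral dog in 4 of the 1351 regions (0.296%), and in all 3 ancestral dogs and no derived dog in 1 (0.074%). Only the 131 regions with such a peak in exactly 3 dogs could be of either kind. The regions below were picked for this separation, so the lack of overlap in the widest peak is not a finding. Among the regions of the derived dogs, the largest difference was at chr9:39007411-39029769. The widest peak there was 10832, 10792 and 10123 bp in the ancestral dogs and 20284, 21156 and 22009 bp in the derived dogs. Every ancestral dog had 3 peaks and every derived dog had 1, and *H3K27ac* covered 78.0 to 83.4% of the region in the former and 90.7 to 98.4% in the latter.

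The gaps that separated the peaks of the ancestral dogs were short. They were 1143 and 1129 bp in ancestral dog 1, 2322 and 1096 bp in ancestral dog 2, and 1117 and 1185 bp in ancestral dog 3. Of these 6 gaps, 5 were shorter than 1.2 kb, where the lists of these dogs hold no gap below 1051 bp. The difference of 10567 bp between the genotypes was 3827 bp when peaks were joined across 1.2 kb and 729 bp when they were joined across 3 kb, both chosen after seeing the data.

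The region in the opposite direction was at chr24:43208415-43234781. Its widest peak was 25492, 26287 and 25119 bp in the ancestral dogs and 14846, 15049 and 14698 bp in the derived dogs, a separation for which it was picked. Each ancestral dog had 1 peak and each derived dog had 2, with gaps of 1055, 1547 and 1484 bp between them in derived dogs 1, 2 and 3. The 3 gaps shared their last part, ending at positions 43219048, 43218979 and 43218970. The difference of −10768 bp was −7224 bp after joining across 1.2 kb. After joining across 3 kb, which closes these gaps but also merges the peaks with neighbours outside the region, it was −7781 bp.

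**Figure D4:**
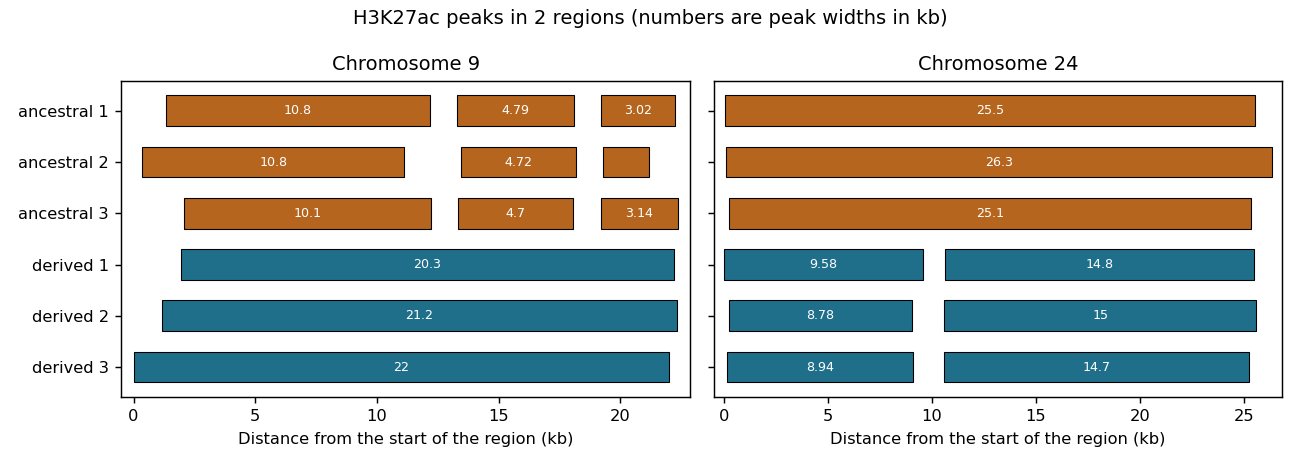
*H3K27ac* peaks of the 6 dogs (bars, with widths in kb) in the region on chromosome 9 and the region on chromosome 24, as distance from the start of the region in kb. On chromosome 9 the 3 ancestral dogs have 3 peaks and the 3 derived dogs have 1; on chromosome 24 the ancestral dogs have 1 peak and the derived dogs have 2, and the gaps are 1055 to 2322 bp long.

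The other 3 regions with wide peaks in the derived dogs alone had less clear patterns. At chr22:9079449-9109182 the widest peak was 16896, 10963 and 11801 bp in the ancestral and 25356, 20088 and 22468 bp in the derived dogs. All dogs had at least 2 peaks there, and the difference of 9417 bp was 619 bp after joining across 3 kb. At chr6:11621286-11641921 the values were 6774, 14660 and 18982 bp against 20585, 20458 and 20272 bp, and the difference of 6966 bp was 609 bp after joining across 1.2 kb.

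At chr3:74080555-74101280 the widest peak was 17216, 16863 and 19645 bp in the ancestral and 20466, 20710 and 20466 bp in the derived dogs. Ancestral dog 3 was just short of the 20 kb limit, and the means differed by 2639 bp. Joining across 3 kb, which merged these peaks with neighbours, gave a difference of 36323 bp. Only on chromosomes 9 and 24 did the number of peaks also separate the genotypes, among these 5 regions.

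The width of every region was then compared with limma, on log2 of the covered bases, over the 47984 regions with a peak in all 6 dogs. At an adjusted p below 0.05, 0 regions (0%) were wider or narrower in the derived dogs, with a lowest adjusted p of 0.463. At an unadjusted p below 0.05 there were 1745 regions (3.64%), of which 1273 (2.65%) were wider and 472 (0.984%) narrower in the derived dogs. These unadjusted numbers are a description. The median log2 difference over all regions was 0.06, and it was −0.04 when each dog was centred on its own median, which left 887 regions wider and 749 narrower. Without ancestral dog 2 it was 0.0016, and without ancestral dog 1 it was 0.11.

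The share of such regions was set beside that background in each class. Wider regions at an unadjusted p below 0.05 were 1.70% of the 5603 regions below 1 kb, 2.75% of the 31109 at 1 to 5 kb, 2.92% of the 10083 at 5 to 20 kb and 2.27% of the 1189 at 20 kb or more. Narrower ones were 1.29, 0.993, 0.853 and 0.421% in the same order, so the share of narrower regions was lowest in the widest class. It rested on 5 regions there, and these shares by class are without centring. From the 5th to the 95th percentile, the log2 differences ran from −0.74 to 0.99 at 1 to 5 kb and from −0.10 to 0.23 at 20 kb or more, so the covered bases of the widest regions varied least on this scale.

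The regions with the lowest p-values were small, and none passed. At chr7:34322689-34324512 the derived dogs had a peak of 1808, 1753 and 1752 bp and the ancestral dogs one of 316, 292 and 281 bp, and the groups did not overlap. The log2 difference was 2.58 (SE 0.180, limma adjusted p = 0.463). After joining across 3 kb, chosen after seeing the data, it was 0.23.

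At chr15:61116424-61117832 the covered bases were 290, 290 and 353 in the ancestral dogs, against 1286, 1361 and 1394 in the derived dogs, a log2 difference of 2.12 (SE 0.185, limma adjusted p = 0.677). At chr4:35107756-35109570 they were 389, 381 and 346 against 1552, 1505 and 1715, a log2 difference of 2.10 (SE 0.190, limma adjusted p = 0.677). In these 3 regions the ancestral dogs had peaks of 281 to 389 bp, where the narrowest peaks of their lists were 262 to 266 bp.

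In the other direction, chr26:19891489-19903871 had 8468, 11311 and 8600 covered bases in the ancestral dogs, against 3233, 4062 and 3477 in the derived dogs, without overlap. It was the only one of the 6 named regions above 5 kb, and its log2 difference was −1.39 (SE 0.171, limma adjusted p = 0.927). At chr4:8064849-8066110 the values were 1199, 1043 and 1192 against 269, 317 and 401, with a log2 difference of −1.82 (SE 0.219, limma adjusted p = 0.927) that was −0.11 after joining across 3 kb. At chr23:5722625-5724802 they were 1841, 2105 and 2057 against 590, 679 and 605 (log2 difference −1.68, SE 0.212, limma adjusted p = 0.927).

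A single region passed when only peaks with a q value below 1e-05 entered, and it did not hold with all peaks. At chr25:43748956-43755405 these strong peaks covered 509, 484 and 409 bases in the ancestral dogs, against 5229, 4940 and 4536 in the derived dogs, a log2 difference of 3.39 (SE 0.138, limma adjusted p = 0.0216, 19000 regions tested). With all peaks, the covered bases were 5349, 4514 and 4505 against 5229, 4940 and 4536. The log2 difference was then 0.04 (SE 0.140, limma adjusted p = 1), because the ancestral dogs also had wide peaks there, with −log10 q values of 3.52 to 4.33, under the limit of that setting.

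Counted without a model, the widest peak was larger in every derived dog than in every ancestral dog in 2620 of the 47984 regions (5.46%), and smaller in 1158 (2.41%). At 20 kb or more the shares were 5.38 and 1.26%, at 5 to 20 kb 6.19 and 1.83%, at 1 to 5 kb 5.45 and 2.49%, and below 1 kb 4.25 and 3.28%. The share of wider regions was near the background in all classes. That of narrower regions fell with width, to 15 of 1189 regions in the widest class. These widths were not centred by dog. With 20 assignments of 3 dogs against 3, some regions can separate under any labels. The regions come from the same 6 lists and are not independent of each other.

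*E2F1*, which the width classes did not use, overlapped wide *H3K27ac* peaks far more often than narrow ones in every dog. Among peaks of 20 kb or more, 74.5, 79.7 and 91.3% overlapped an *E2F1* peak of the same dog with a q value below 0.0005 in the ancestral dogs, and 49.3, 95.1 and 69.3% did in the derived dogs. Among peaks below 1 kb it was 2.74, 5.62 and 5.77% and 1.62, 7.75 and 3.14%. Derived dog 2 was the highest and derived dog 1 the lowest in both classes. The dogs had 30961, 41132 and 50080 such *E2F1* peaks in the ancestral and 18947, 63306 and 35479 in the derived group, and the overlap put the 6 dogs in the same order in the classes below 5 kb. In the wider classes only ancestral dog 1 and derived dog 3 changed places.

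Per base, the difference between classes was smaller. *E2F1* peaks covered 0.692 to 3.50% of the bases of peaks below 1 kb and 0.807 to 9.001% of those of 20 kb or more. In derived dog 1 the values ran from 0.692 to 0.807% and in derived dog 2 from 3.50 to 9.001%, so the step between the classes differed by dog. Outside *H3K27ac* peaks *E2F1* peaks covered 0.224 to 0.622% of the autosomes, less than in any class of the same dog. Even so, 45.0 to 67.3% of the *E2F1* peaks of a dog overlapped no *H3K27ac* peak.

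The share of *H3K27ac* peaks that overlapped *E2F1* did not differ between the genotypes beyond the spread in any class. At 20 kb or more it was 81.8 ± 8.59% in the ancestral and 71.2 ± 22.9% in the derived dogs (SD, n = 3 and 3; exact permutation p = 0.5, adjusted p = 0.9). At 5 to 20 kb the dogs ranged from 17.5% (derived dog 1) to 61.7% (derived dog 2), and the difference was −6.00 percentage points (exact permutation p = 0.7, adjusted p = 0.9, n = 3 and 3). At 1 to 5 kb and below 1 kb it was −2.17 and −0.542 percentage points (exact permutation p = 0.9 and adjusted p = 0.9 for both, n = 3 and 3). Both extremes were derived dogs, and without derived dog 1 all 4 differences became positive, at 0.735, 1.55, 3.61 and 0.360 percentage points from the narrowest to the widest class. Counted the other way, 5.31, 5.71 and 4.76% of the *E2F1* peaks of the ancestral dogs overlapped an *H3K27ac* peak below 1 kb. In the derived dogs it was 4.36, 4.48 and 4.005%, without overlap of the groups, which was not tested. In the wider classes the groups overlapped in this share.

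Chromosomes differed more in wide peaks than in narrow ones. Chromosome 9 had the highest density in all 4 classes, with means over the dogs of 30.8, 41.0, 10.6 and 1.24 peaks per Mb from the narrowest to the widest class. The lowest densities were 12.7 on chromosome 19, 12.8 and 1.61 on chromosome 29, and 0.0515 on chromosome 32. The ratio of the highest to the lowest was 2.44 below 1 kb, 3.21 at 1 to 5 kb, 6.60 at 5 to 20 kb and 24.1 at 20 kb or more. The last ratio rests on few peaks.

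Peaks of 20 kb or more on chromosome 9 numbered 90, 46 and 72 in the ancestral dogs, against 73, 102 and 72 in the derived dogs. Those on chromosome 32 numbered 1, 4 and 2 against 0, 2 and 3. Chromosome 9 was far above chromosome 32 in every dog, and on both the genotypes overlapped. Peaks of this class covered 3.90% of chromosome 9 and 0.127% of chromosome 32 on average.

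Of the 276 regions with a peak of 20 kb or more in all 6 dogs, 29 (10.5%) were on chromosome 9. Chromosomes 6 and 5 followed with 19 and 18, and chromosome 32 was the 1 autosome with none. Per Mb, chromosome 9 held 0.475 such regions and chromosome 24, next in density, 0.335, against 0.125 over all autosomes.

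The order of the chromosomes was similar between classes of neighbouring width and less so between the extremes. Across the 38 autosomes, Spearman's rho of the mean densities was 0.981 between the 2 narrowest classes, 0.866 between the 2 widest and 0.646 between peaks below 1 kb and peaks of 20 kb or more. Chromosomes 38 and 3, for example, ranked in the first 10 for the widest class only. Between dogs, the order within a class had a median rho of 0.973, 0.985, 0.976 and 0.932 over 15 pairs, from the narrowest to the widest class. These are descriptions over chromosomes that share the same 6 lists.

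Few chromosomes separated the genotypes. With 20 assignments of 3 dogs against 3, some chromosomes can do so under any labels, so their numbers are a description. Over all classes, 0 of 38 autosomes (0%) had a larger share of the peaks in every derived dog than in every ancestral dog, and 1 (2.63%), chromosome 7, had a smaller one. By class, the derived dogs were higher on chromosomes 2 and 15 below 1 kb and on chromosome 1 at 5 to 20 kb. They were lower on chromosomes 7 and 24 at 1 to 5 kb, on chromosome 11 at 5 to 20 kb and on chromosome 38 at 20 kb or more. The number per class and direction was 0 to 2 of 38, and the direction depended on the setting. With q below 1e-05 it was 3 higher and 0 lower at 1 to 5 kb, with an equal number of peaks per dog 0 higher and 1 lower below 1 kb, and with the class limits raised by 20% 5 higher and 0 lower in the widest class.

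The separations were small. On chromosome 38, peaks of 20 kb or more were 1.79, 1.68 and 1.68% of the class in the ancestral dogs, against 1.54, 1.201 and 1.32% in the derived dogs. The numbers behind these shares were 14, 9 and 11 against 10, 11 and 10 peaks, which overlapped. On chromosome 2, peaks below 1 kb were 4.68 ± 0.0224% of the class in the ancestral and 4.81 ± 0.0729% in the derived dogs (SD, n = 3 and 3). On chromosome 7, peaks of 1 to 5 kb were 4.01% of the class in the ancestral and 3.89% in the derived dogs on average.

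Toward the ends of the chromosomes the density of peaks below 1 kb changed little. Peaks of 20 kb or more were less dense in the last 10% of a chromosome in every dog. The first 10% of a chromosome held 9.91 to 10.2% of the peaks below 1 kb and 8.38 to 10.3% of those of 20 kb or more. The last 10% held 9.78 to 10.7% and 7.40 to 9.39%.

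**Figure D5:**
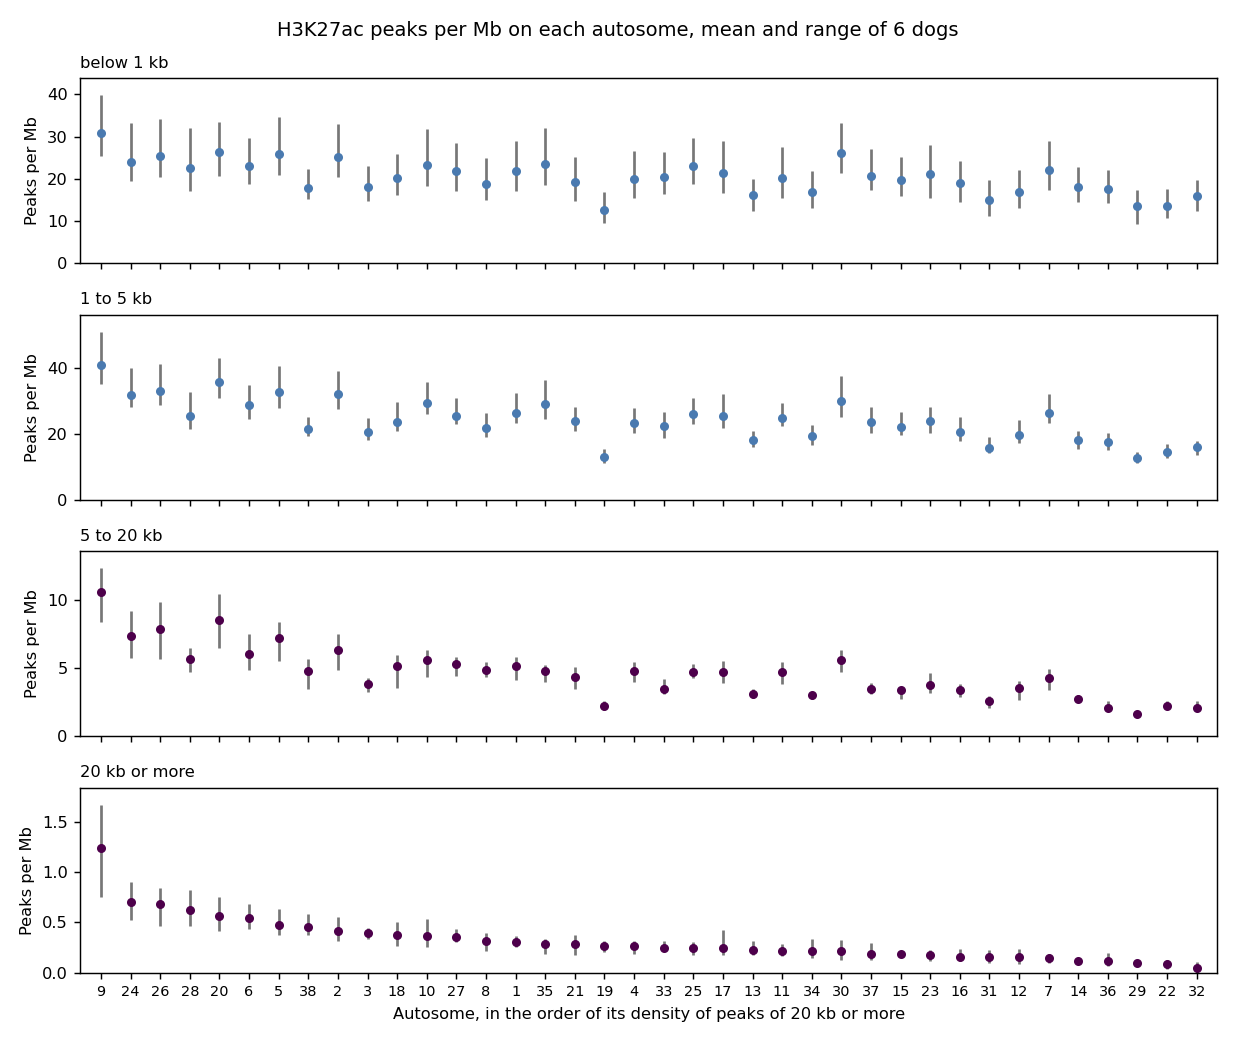
*H3K27ac* peaks per Mb on each of the 38 autosomes in the 4 width classes, as the mean (point) and range (line) of 6 dogs, with chromosomes in the order of their density of peaks of 20 kb or more. Chromosome 9 is highest in all classes, and the fall from the highest to the lowest chromosome is 2.44-fold below 1 kb and 24.1-fold at 20 kb or more.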

How the data were processed

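Peak lists of *H3K27ac* and *E2F1* *ChIP-seq* from the pons of 6 dogs were used. Of the 18 samples of the series, the 6 input libraries were not analysed here, and the labels gave each sample's genotype and replicate number. Reads were trimmed by the authors with Trim Galore 0.0.6 and mapped with bowtie to CanFam3.1, where reads with several matches stayed in. Duplicates were then taken out by molecular identifier, and MACS2 2.2.0 was run on every dog by itself, in broad mode for *H3K27ac* (versions per the submitters' processing notes). Whether input libraries entered the calls is not given in the sources used here. The deposited lists give positions, the MACS2 score (not used here), the fold enrichment of a peak as a ratio computed by the authors, and −log10 transformed p and q values. No normalization between dogs was applied.

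All deposited peaks entered, and width was end minus start in the 0-based lists (printed coordinates are 1-based). Peaks of a list did not overlap. Numbers, lengths, shares and widths were compared with two-sided exact permutation tests over 20 assignments of 3 dogs against 3, with Benjamini-Hochberg adjustment within each measure. Overlapping or touching peaks (at least 1 bp) were merged into regions, and log2 covered bases were fitted with limma 3.58.1 (R 4.3.3, trended variance) where all 6 dogs had a peak. Differences are derived minus ancestral. *E2F1* peaks with q below 0.0005, the study's threshold, were intersected with *H3K27ac* peaks. Python 3.11.15, numpy 2.4.6, pandas 2.3.3 and scipy 1.17.1 were used, and the fit was tested on simulated data.

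The regions named are the widest peak per dog, the 5 with peaks of 20 kb or more in all dogs and the largest narrowest value, those with such peaks in every dog of 1 genotype alone, and the 3 lowest p-values in each direction. The region at chromosome 25 that passed under a stricter q, and chromosomes 3, 5, 6, 24 and 38 named for rank, were chosen after their values were seen. The classes, tests and naming rules were chosen with earlier results of these data known. Alternatives were q limits of 0.05 and 1e-05, equal peak numbers per dog, all sequences, raised class limits, joined peaks, all *E2F1* peaks, centring, a replicate block, and leaving out each dog. Lists of marker genes and sequences were not used, because no annotation or genome of CanFam3.1 was at hand.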

Additional observations from a re-analysis of the deposited data

How the results depend on the processing

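Of 314 alternative values of the 21 comparisons of 3 dogs against 3, 26 changed sign and none crossed a threshold, since the exact test could not reach one. The lists hold no depth, and joining peaks across 1 kb changed no value, because no list has a gap that short. Joining across 1.2 and 3 kb was chosen after seeing the data. For the changes below, the cause was not tested.

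With q below 1e-05, the covered length at 1 to 5 kb differed by −0.766 Mb, 1 chromosome at 5 to 20 kb separated the genotypes, and limma gave 1 call, with 545 regions at an unadjusted p below 0.05. With an equal number of peaks per dog, the number at 1 to 5 kb differed by 1001 and that of all peaks by 0, and the chromosomes separating the genotypes were 1 below 1 kb and 2 over all classes. After joining across 1.2 kb, the number at 1 to 5 kb differed by 311, and 1, 1 and 5 chromosomes separated the genotypes below 1 kb, at 5 to 20 kb and at 20 kb or more. After joining across 3 kb, the length at 1 to 5 kb differed by −1.82 Mb and the share at 5 to 20 kb by −0.693 percentage points, 4 and 2 chromosomes separated the genotypes below 1 kb and at 20 kb or more, and 891 regions had an unadjusted p below 0.05. With class limits raised by 20%, the number at 1 to 5 kb differed by 204.7, and 1 and 5 chromosomes separated the genotypes at 5 to 20 kb and at 20 kb or more. With all *E2F1* peaks, overlap differed by 1.46, 1.88 and 1.34 percentage points in the 3 narrower classes. Centring each dog gave a median log2 width difference of −0.0446. Testing regions with a peak in at least 2 dogs of each genotype gave 2844 at an unadjusted p below 0.05. When at least 50% of a peak had to be covered in the other dog, 65.2% of peaks at 1 to 5 kb, 91.3% at 5 to 20 kb and 99.5% at 20 kb or more were shared.

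Leaving out each dog in turn gave differences in peak number of −6928 to 2644 below 1 kb, −3492 to 5282 at 1 to 5 kb and −9828 to 9892 over all classes, and in covered length of −3.57 to 1.32, −6.05 to 12.2 and −6.05 to 35.1 Mb for the same. It gave 4 to 9, 3 to 9, 3 to 6 and 2 to 8 separating chromosomes from the narrowest to the widest class and 1 to 6 over all, since fewer dogs overlap less often. The median log2 width difference was 0.0016 to 0.107. *E2F1* overlap differed by −2.33 to 0.735, −7.37 to 1.55, −18.5 to 3.61 and −22.5 to 0.360 percentage points. Regions with an unadjusted p below 0.05 numbered 1710 to 3592, the most without ancestral dog 1, and 0 passed in any of these fits.

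Replicate numbers did not pair the dogs: deviations of same-numbered dogs correlated at −0.00463, −0.141 and −0.0642 over 47984 regions. With the number as a replicate block, 0 regions passed and 1508 had an unadjusted p below 0.05. The smallest exact p for 3 pairs is 0.25. Of the 38 autosomes, 5, 6, 5 and 9 moved the same way in all 3 pairs, from the narrowest to the widest class. With only 8 sign assignments of 3 pairs, some chromosomes can do so under any labels, so these numbers are a description.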
